A study of Arabidopsis thaliana with 6 samples.

Results

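The genes described here keep existing DNA methylation in place in Arabidopsis thaliana: the CG methyltransferase MET1, the chromomethylases CMT1, CMT2 and CMT3, the chromatin remodeller DDM1 and the methyl-DNA readers VIM1 to VIM5. They were chosen by locus identifier, from the literature on plant DNA methylation, and all 10 were found among the 33602 genes of the count tables. RNA came from pollen of the Col accession. One group was paps1-3 pollen, which carries a mutant allele of the nuclear poly(A) polymerase gene PAPS1, and the other was wild-type pollen, with 3 libraries each, lettered A to C. Both were flow-sorted by red fluorescence from plants of genotype PAPS1 pLat52::RFP / paps1-3, in which a pollen promoter drives the fluorescent protein. Both groups thus share heterozygous mother plants. As written, this genotype places the fluorescent protein gene with the PAPS1 copy, opposite paps1-3. By that reading paps1-3 pollen would be the non-fluorescent fraction, though the labels do not say which fluorescence fraction is which group. The labels do not say whether libraries came from separate plants, so the replicate spread behind each p-value may be technical. The study's question, by its title, concerns PAPS1 and RNA-directed DNA methylation, a pathway that can set new methylation.

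After DNA replication only the old strand carries methyl groups. In CG sites VIM proteins bind the half-methylated site and MET1 copies the mark, while CMT3 and CMT2 methylate CHG and CHH sites (H is any base but G) guided by methylation of histone H3 on lysine 9, the mark called H3K9 methylation. DDM1 opens nucleosomes so that the methyltransferases reach heterochromatin. A pollen grain holds a large vegetative cell with a pair of sperm cells inside it. DDM1 protein is known from sperm nuclei of mature pollen and is absent from the vegetative nucleus, where transposons become active.

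Libraries held 19861313 to 41176647 gene counts in paps1-3 and 31909683 to 37685541 in wild type, and the 10 genes together had 1310 to 2930 counts against 3420 to 3626. PAPS1 (AT1G17980) itself had 18, 9 and 3 counts in paps1-3 against 32, 25 and 20 in wild type. Scaling bears on the directions given. Levels are CPM, counts relative to library size, with sizes scaled by TMM, a method that assumes most genes do not change, and each change is also given by library totals alone. Totals placed log2 fold changes higher by a median of 1.25 per gene, and the median over the 14273 genes tested was 0.37 by TMM and 1.63 by totals. The RNA is that of bulk sorted pollen, in which fewer cells of a type and less RNA per cell cannot be told apart.

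The members did not move as one group. MET1 and DDM1, the 2 with the most counts in wild-type pollen, were lower in paps1-3 together with VIM1 under both scalings, the chromomethylases were higher under both, and VIM3 and VIM4 changed direction with the scaling. By TMM 3 of the 10 were higher and 6 lower at an adjusted p below 0.05 (edgeR quasi-likelihood test, adjusted over all tested genes). Of all tested genes 72.2% were called in that comparison, 42.3% as higher and 29.9% as lower, so a call by itself is common here. These shares also put in doubt the assumption of TMM that most genes do not change. By totals 6 members were higher and 3 lower, where 80.0% of all genes were called, 70.3% higher and 9.7% lower. The members' median log2 fold change was −0.70 by TMM and 0.55 by totals, below that of all tested genes under both. CMT1, CMT2 and CMT3, the 3 called higher by TMM, had fewer than 10 counts in every wild-type library. They passed the filter on low counts through their paps1-3 libraries alone, so their calls and p-values are a description.

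**Figure D1:**
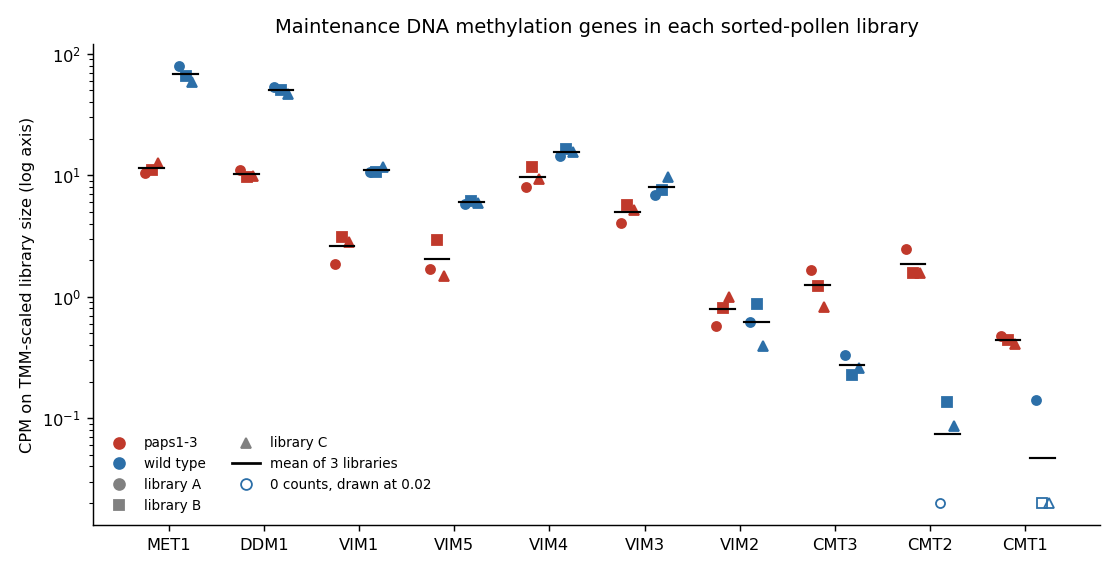
Level of each gene in each library, as CPM on TMM-scaled library size on a log axis, with paps1-3 in red left of wild type in blue; symbols give the library letter and bars the mean of 3 libraries. The groups are separate for all genes except VIM2, with MET1 at 10.5 to 12.6 CPM in paps1-3 against 58.2 to 79.6 in wild type.

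MET1 (AT5G49160), which copies CG methylation onto new DNA, had 10.5, 11.1 and 12.6 CPM in paps1-3 libraries A, B and C, against 79.6, 65.2 and 58.2 CPM in wild type. Every paps1-3 library lay below every wild-type library, as it did by library totals, with 16.4 to 18.5 against 35.6 to 52.7 CPM. Groups did not overlap for 75.5% of all tested genes by TMM (44.0% with paps1-3 above and 31.5% with it below) and for 81.7% by totals (71.2% above and 10.5% below). The log2 fold change was −2.57 ± 0.15 (SE, n = 3 each, edgeR adjusted p = 2.02e-13), and −1.33 ± 0.15 by totals (edgeR adjusted p = 3.66e-07).

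DDM1 (AT5G66750), a SWI/SNF-type remodeller needed for methylation of heterochromatin in every sequence context, had 11, 9.67 and 9.77 CPM in paps1-3, against 53.1, 50.6 and 46.4 CPM in wild type. Here too the groups did not overlap under either scaling. DDM1 changed by −2.30 ± 0.14 on the log2 scale (edgeR adjusted p = 5.14e-13) and by −1.04 ± 0.14 by totals (edgeR adjusted p = 6.00e-06). Among all genes tested, 3.03% had a lower log2 fold change than MET1 and 4.77% a lower one than DDM1.

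MET1 and DDM1 took a smaller part of the 10 genes' counts in paps1-3, at 48.0% ± 4.2 against 73.7% ± 3.4 in wild type (mean ± SD, n = 3 each). The 5 VIM genes made up 44.0% ± 6.0 in paps1-3 and 26.1% ± 3.4 in wild type, and the 3 chromomethylases 7.97% ± 2.55 and 0.247% ± 0.025. These shares need no scaling between libraries. All 10 genes together took 0.00693% ± 0.00029 of gene counts in paps1-3 and 0.0104% ± 0.0012 in wild type.

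**Figure D2:**
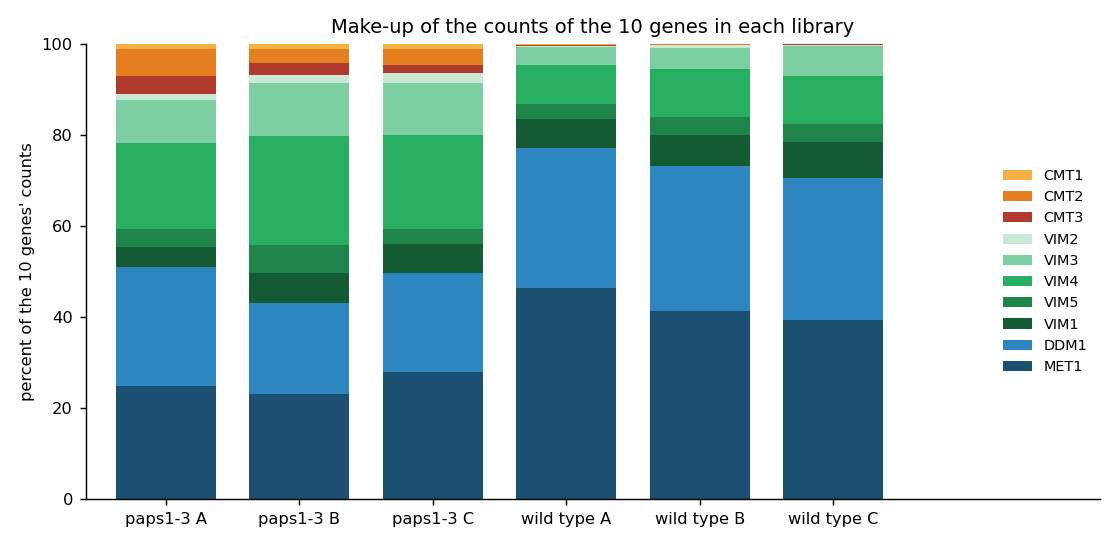
Percent of the 10 genes' summed counts that each gene takes (vertical axis), 1 stacked bar per library, paps1-3 A to C left of wild type A to C. MET1 and DDM1, in blue at the base, hold 43.2% to 51.0% in paps1-3 libraries and 70.5% to 77.3% in wild-type libraries, while the red and orange chromomethylase bands are visible in paps1-3 alone.

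VIM proteins carry an SRA domain that holds the half-methylated site, beside PHD and RING domains, and vim1 vim2 vim3 triple mutants lose CG methylation much as met1 mutants do. Which VIM genes can be told apart by reads depends on their sequence. Aligned over the coding sequence, VIM2 and VIM4 were identical at 1860 of 1869 bases (99.5%), with 1 unbroken identical run of 1289 bases. VIM3 was identical to each of them at 95.9% of aligned bases, and VIM1 and VIM5, which are neighbours on chromosome 1, to each other at 83.9%. The first 90 coding bases of the 5 genes show this, read 5′ to 3′ from the gene's strand in RefSeq's TAIR10.1 assembly, with capitals where a base differs from VIM2.
VIM2: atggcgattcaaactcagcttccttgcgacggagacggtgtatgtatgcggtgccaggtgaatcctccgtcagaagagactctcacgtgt
VIM4: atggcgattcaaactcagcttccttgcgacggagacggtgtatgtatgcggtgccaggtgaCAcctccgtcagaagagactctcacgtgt
VIM3: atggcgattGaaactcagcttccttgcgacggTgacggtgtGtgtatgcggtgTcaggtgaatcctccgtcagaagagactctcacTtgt
VIM1: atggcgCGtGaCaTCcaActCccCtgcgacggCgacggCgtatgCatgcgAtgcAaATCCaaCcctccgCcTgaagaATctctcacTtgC
VIM5: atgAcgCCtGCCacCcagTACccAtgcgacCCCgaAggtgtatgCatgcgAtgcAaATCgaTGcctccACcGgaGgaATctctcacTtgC
They lie at chr1:24589534-24589623 (plus strand, VIM2), chr1:24586592-24586681 (minus, VIM4), chr5:15840414-15840503 (minus, VIM3), chr1:21417813-21417902 (minus, VIM1) and chr1:21412194-21412283 (minus, VIM5), each in the first coding exon. In this stretch VIM4 differs from VIM2 at 2 bases, VIM3 at 5, VIM1 at 25 and VIM5 at 31. Of the 101-base windows of the spliced transcripts, the length of read 1, 59.0% in VIM2 and 65.2% in VIM4 had an exact second copy in the genome or in another member's transcript, against 1.57% in VIM3 and 0 in the other 7 genes. Reads with no unique place were counted in a category of their own, so values of VIM2 and VIM4 rest on part of each transcript and are uncertain, and no annotated gene overlapped any of the 10.

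VIM1 (AT1G57820) had 1.85, 3.12 and 2.81 CPM in paps1-3, against 10.7, 10.7 and 11.8 CPM in wild type, without overlap under either scaling. Its log2 fold change was −2.10 ± 0.20 (edgeR adjusted p = 2.32e-09), and −0.86 ± 0.20 by totals (edgeR adjusted p = 0.00083). VIM5 (AT1G57800), its neighbour and near relative, had 1.68, 2.94 and 1.47 CPM in paps1-3 and 5.82, 6.18 and 5.94 CPM in wild type. It was lower by TMM, at −1.53 ± 0.25 (edgeR adjusted p = 7.37e-06), but by totals the groups overlapped and the value of −0.29 did not pass (edgeR adjusted p = 0.305).

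VIM3 and VIM4 followed another course. VIM4 (AT1G66040) had 7.94, 11.6 and 9.29 CPM in paps1-3, against 14.5, 16.6 and 15.5 CPM in wild type, which is lower by TMM (−0.69 ± 0.16, edgeR adjusted p = 0.000673). By totals it had 13.3, 17.1 and 13.6 CPM in paps1-3 against 9.62, 11.1 and 9.50 CPM, which is higher (0.55 ± 0.15, edgeR adjusted p = 0.00374). VIM3 (AT5G39550) had 4.03, 5.64 and 5.18 CPM in paps1-3 and 6.86, 7.54 and 9.67 CPM in wild type, at −0.70 ± 0.19 by TMM (edgeR adjusted p = 0.00269) and 0.55 ± 0.18 by totals (edgeR adjusted p = 0.0116). For both genes the groups were separate under each scaling, in opposite directions, so no direction is given for either. VIM2 (AT1G66050) was the scarcest VIM, with 0.569, 0.805 and 0.994 CPM in paps1-3 and 0.615, 0.863 and 0.390 CPM in wild type. These overlapped and did not pass by TMM (0.33 ± 0.49, edgeR adjusted p = 0.559), while by totals VIM2 was higher (1.55 ± 0.51, edgeR adjusted p = 0.01).

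VIM2 and VIM4 stand head to head on chromosome 1. VIM2 supplied 6.69%, 6.49% and 9.67% of the pair's counts in paps1-3 libraries, against 4.06%, 4.95% and 2.45% in wild type. The shares did not overlap between groups, but exact 95% binomial intervals, which cover counting error only, did: 4.71% to 9.18% in paps1-3 A against 3.00% to 7.62% in wild type B. VIM4 had 9.34 to 14.4 times the counts of VIM2 in paps1-3 libraries and 19.2 to 39.8 times in wild type, from transcripts that share most of their windows.

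VIM3 and VIM4 were also alike upstream. Over the 6 libraries, the log2 CPM of this pair, each gene centred on its mean, had the smallest root mean square distance of all 45 pairs of members, 0.154 on the log2 scale. The best local alignment of the 250 bases before the annotated starts of these genes, which lie on chromosomes 5 and 1, joined 139 bases, of which 134 (96.4%) were identical. It was the highest-scoring of the 45 pairs, followed by VIM2 with VIM3 (57 of 60 bases) and VIM2 with VIM4 (48 of 51). These alignments were made after the values had been seen and are a description. The stretches are given 5′ to 3′ on the gene's strand, with capitals for bases that differ from the other gene or have no partner in it.
VIM3: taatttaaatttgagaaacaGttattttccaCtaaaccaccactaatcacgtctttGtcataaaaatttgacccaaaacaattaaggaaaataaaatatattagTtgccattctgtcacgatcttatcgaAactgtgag
VIM4: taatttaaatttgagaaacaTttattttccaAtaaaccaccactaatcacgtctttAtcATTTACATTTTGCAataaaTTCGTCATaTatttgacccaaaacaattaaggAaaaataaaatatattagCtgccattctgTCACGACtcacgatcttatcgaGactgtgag
They cover chr5:15840679-15840817 (minus strand, 1 to 139 bases before VIM3) and chr1:24586840-24587009 (minus strand, 80 to 249 bases before VIM4) of TAIR10.1. What these letters do in pollen was not measured.

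The chromomethylases were scarce in both groups and higher in paps1-3. They passed the filter on low counts through paps1-3 alone, so the values below are a description. By TMM 95.1%, 86.8% and 76.7% of all tested genes had a lower log2 fold change than CMT2, CMT1 and CMT3. CMT2 (AT4G19020), which methylates CHH sites in long transposons, had 152, 96 and 46 counts in paps1-3, against 0, 3 and 2 in wild type. That is 2.47, 1.58 and 1.58 CPM against 0, 0.136 and 0.0867 CPM, with every paps1-3 library above every wild-type library. The log2 fold change was 4.58 ± 0.58 (edgeR adjusted p = 2.07e-07), and 5.81 ± 0.58 by totals (edgeR adjusted p = 1.27e-07). From summed counts, 294 against 5, the ratio was 25.7 with a 95% interval of 10.9 to 79.7 on TMM-scaled sizes and 61.6 (26.1 to 191) on totals, counting error only. The fitted value was 3.98 without wild type A and 5.22 without wild type B.

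CMT3 (AT1G69770), the CHG methyltransferase that reads H3K9 methylation, had 102, 75 and 24 counts in paps1-3, against 7, 5 and 6 in wild type. Its level was 1.24 ± 0.42 CPM in paps1-3 and 0.273 ± 0.053 in wild type (SD, n = 3 each), a log2 fold change of 2.19 ± 0.49 (edgeR adjusted p = 0.000378), and of 3.45 ± 0.50 by totals (edgeR adjusted p = 9.06e-06). CMT1 (AT1G80740), a relative whose role is unclear, had 29, 27 and 12 counts in paps1-3 and 3, 0 and 0 in wild type; a count of 0 allows up to 3. The ratio of summed counts, 68 against 3, was 9.91 (3.25 to 49.2) on TMM-scaled sizes and 23.7 (7.79 to 118) on totals, and the fitted log2 fold change of 3.19 ± 0.86 (edgeR adjusted p = 0.00209; 4.37 by totals) became 7.12 without wild type A, the only wild-type library with a count, so that value is no bound. It was 2.57 without wild type B and 2.55 without wild type C.

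Markers of other tissues were measured in the same libraries. The 5 markers of green tissue summed to 1.19 to 1.32 CPM in paps1-3 and 0.318 to 0.347 CPM in wild type, 1 of them (PSBO1, with 23, 38 and 19 counts against 0, 0 and 2) passed the filter, through paps1-3 alone, and RBCS1A, the small subunit of Rubisco, had 25, 12 and 4 counts in paps1-3 and 0 in every wild-type library. LHCB1.3, a light-harvesting protein gene, went the other way by TMM, with 0.114, 0.148 and 0.171 CPM in paps1-3 against 0.237, 0.227 and 0.26 CPM in wild type. RCA had 5, 6 and 5 against 1, 2 and 0 counts and overlapped by TMM, and LHCB1.1 had 13, 15 and 2 against 1, 0 and 0. By totals each of the 5 green markers, LHCB1.3 and RCA included, was higher in every paps1-3 library, as were 71.2% of all tested genes. The 6 tapetum markers, genes of the nurse cells of the anther, summed to 4.51, 1.17 and 1.27 CPM in paps1-3 libraries A, B and C against 1.14, 0.954 and 1.3 CPM, with A9 at 0 throughout and GRP17 at 179, 21 and 5 against 3, 1 and 4 counts. Of the 2 tested tapetum markers MS2 was lower by TMM but did not pass by totals (−0.13, edgeR adjusted p = 0.863). LAP6, which passed the filter through paps1-3 alone, had 56, 28 and 23 counts against 3, 2 and 3. More genes were detected in each paps1-3 library (24587 to 30343) than in any wild-type library (16869 to 19668). A gain of counts from near absence was thus not particular to the chromomethylases. CMT2 and CMT3 were highest in paps1-3 A, as the tapetum sum was, of which GRP17 alone held 2.91 of 4.51 CPM there. The green sum was highest in paps1-3 B by TMM, at 1.32 CPM, and in paps1-3 A by totals, at 1.99 CPM. The part of such RNA in these values was not tested.

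**Figure D3:**
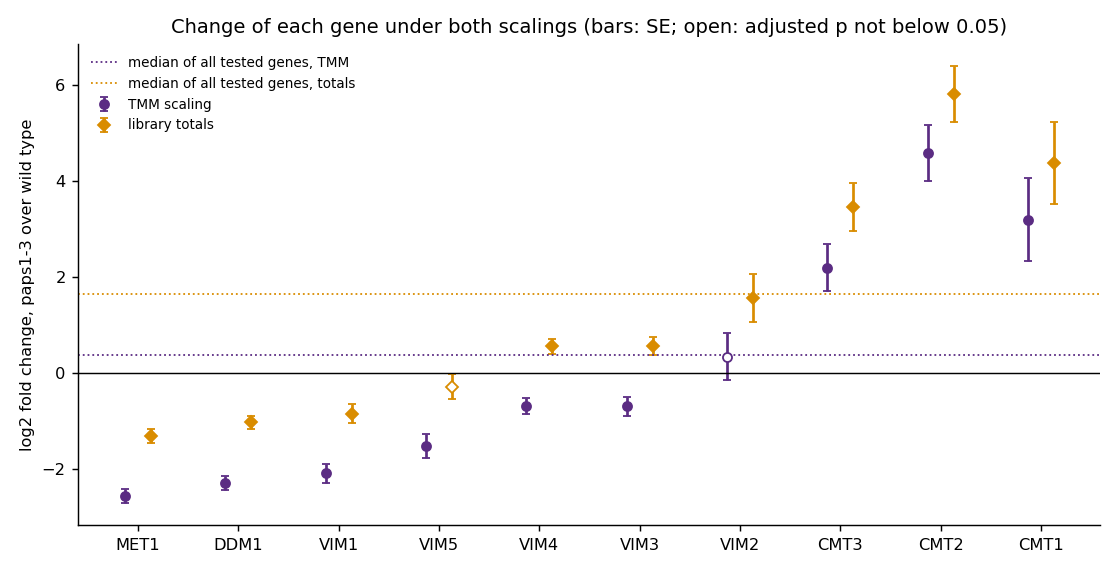
Log2 fold change of each gene, paps1-3 over wild type (vertical axis), by TMM scaling in purple and by library totals in orange, with standard errors; open symbols did not pass at an adjusted p of 0.05, and dotted lines give the median of all tested genes. MET1, DDM1 and VIM1 lie below 0 and the 3 CMT genes above 0 under both, while VIM3 and VIM4 cross 0 at −0.70 and −0.69 by TMM and 0.55 each by totals.

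The order of levels was set per length. Per kilobase of annotated exon, DDM1 had 18 ± 1.2 CPM per kilobase in wild-type pollen, above MET1 at 13.4 ± 2.2 and VIM4 at 7.67 ± 0.51 (SD, n = 3). VIM1 (4.47), VIM3 (3.55), VIM5 (2.82), VIM2 (0.280) and CMT3 (0.0890) followed, each range lying wholly below the one before, and CMT1 and CMT2 came last with overlapping ranges. In paps1-3 pollen VIM4 stood first on this scale at 4.74 ± 0.91 CPM per kilobase with a range that overlapped DDM1 at 3.67 ± 0.28, then MET1 (2.25 ± 0.21) and VIM3 (2.19 ± 0.37), which also overlapped. VIM1 (1.05) and VIM5 (0.958) overlapped, as did each neighbouring pair among CMT2 (0.435), CMT3 (0.404) and VIM2 (0.355), and CMT1 was lowest at 0.171. The place of VIM4 turned with the length used. Per 1000 windows with no second copy, a scale chosen after the values had been seen, VIM4 stood first in both groups. It had 14.3 ± 2.8 CPM in paps1-3 and 23.2 ± 1.5 in wild type, above DDM1 at 3.81 ± 0.29 in paps1-3 and 18.7 ± 1.3 in wild type (SD, n = 3 each). These windows stand for single reads, whereas pairs were sequenced, and a pair may find a unique place through either read. The countable part of VIM4 may thus be larger, and its level on this scale too high.

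Ratios of 2 genes within a library do not depend on scaling between libraries, so each member was also set against MET1. Per 100 MET1 counts, DDM1 had 105, 86.9 and 77.7 counts in paps1-3, against 66.7, 77.6 and 79.6 in wild type, and these ranges overlapped. The mean log2 ratio was higher in paps1-3 by 0.26 (exact permutation p = 0.2, adjusted 0.2 over 9 ratios). VIM1, at 17.7, 28.1 and 22.3 against 13.4, 16.4 and 20.3 per 100, overlapped as well (difference 0.44, exact permutation p = 0.2). For the other 7 genes every paps1-3 ratio to MET1 exceeded all 3 wild-type ratios, each at exact permutation p = 0.1 (two-sided, adjusted 0.129), the smallest that 3 against 3 libraries allow, so none could pass 0.05. Of all other tested genes 90.9% were likewise above in every paps1-3 library and 1.14% below, so a higher ratio to MET1 is the common case here, and the overlap of DDM1 and VIM1 is the less common one.

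VIM4 had 75.7, 104 and 73.8 counts per 100 MET1 counts in paps1-3, against 18.3, 25.4 and 26.7 in wild type, a difference of 1.85 in mean log2 ratio. VIM3 had 38.4, 50.7 and 41.1 against 8.63, 11.6 and 16.6, a difference of 1.86. The difference was 0.94 for VIM5, 2.90 for VIM2, 4.60 for CMT3, 5.95 for CMT1 and 7.20 for CMT2. The median difference over all tested genes was 2.93, and 27.9% of them had a lower one than VIM4 and 28.2% than VIM3, against 5.02% for DDM1 and 6.47% for VIM1.

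**Figure D4:**
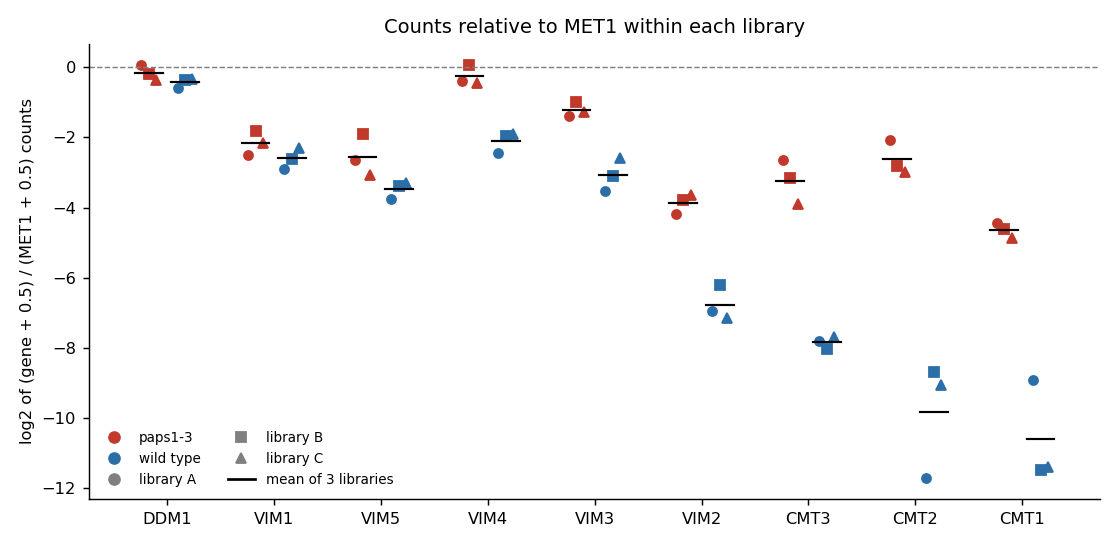
Log2 ratio of each gene's counts to those of MET1 in the same library, 0.5 added to both (vertical axis), paps1-3 in red left of wild type in blue, with 3 libraries and their mean. DDM1 and VIM1 overlap between groups, and the other 7 genes lie higher in every paps1-3 library, as did 90.9% of all tested genes.

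Measured by the same distance over 6 libraries, the 5 tested genes closest to MET1 were AT3G10300 (0.0528 on the log2 scale), AT5G18420 (0.0893), the poly(A)-binding protein gene PAB5 (AT1G71770, 0.113), the reticulon-like RTNLB3 (AT1G64090, 0.115) and the beta-galactosidase gene BGAL16 (AT1G77410, 0.131). AT3G10300 had 2.99 ± 0.14 CPM in paps1-3 and 17.7 ± 2.5 in wild type (SD, n = 3 each). DDM1 ranked 80 of 14272 by closeness to MET1 and VIM1 562, against 3707 for VIM4 and 13970 for CMT2. A distance of this kind is small wherever genes have like group differences.

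Sperm cell markers moved in the direction of MET1 and DDM1 by TMM. The 10 markers summed to 162 to 217 CPM in paps1-3 and 784 to 823 CPM in wild type. Of 9 tested 7 were lower and 0 higher, where 29.9% of all tested genes were lower, and GEX2 was nearly absent at 3, 0 and 0 against 1, 1 and 0 counts. By totals 3 were lower and 2 higher, where 9.7% of all tested genes were lower and 70.3% higher. Of 6 vegetative cell markers 5 were lower and 0 higher by TMM, and 3 were lower and 1 higher by totals, their sums being 12891 to 15398 CPM in paps1-3 and 39593 to 44201 CPM in wild type by TMM. Per 100 counts of the summed sperm markers, MET1 had 5.82, 5.13 and 7.74 in paps1-3, against 9.73, 8.32 and 7.07 in wild type, which overlapped, as did DDM1 and VIM1. That rested on 1 gene, PCR11, which held 27.1% to 35.8% of the sperm marker counts in paps1-3 and 50.1% to 55.4% in wild type; leaving it out was chosen after the values had been seen. Without it MET1 had 7.98, 7.99 and 11.5 against 19.5, 18.2 and 15.8 per 100, DDM1 8.41, 6.94 and 8.90 against 13, 14.1 and 12.6, and neither overlapped. VIM3 and VIM4 were higher per sperm marker count in every paps1-3 library with PCR11 and without it. Per count of the summed vegetative markers MET1, DDM1 and VIM1 were lower in every paps1-3 library, VIM5 overlapped, and the other members were higher. In that sum 1 gene, VGD1, held most counts, with 524353 of 792410 in paps1-3 A and 518226 of 895371 in wild type A. The ratios to vegetative markers were not taken again without VGD1, so they may rest on that gene. The part of sperm cell number in these values was not tested.

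Other genes that act with the maintenance machinery were taken as 6 lists of 29 genes. Of 25 tested, 12 were higher and 7 lower by TMM (48% and 28%, near the shares of all genes), and 19 higher and 2 lower by totals (76% and 8%). Of the 12, MET3, H1.2, PCNA1, PCNA2 and MBD7 had fewer than 10 counts in every wild-type library and passed the filter on low counts through paps1-3 alone, so their values are a description. Among MET1 paralogs and the VIM relative ORL1, only ORL1 was abundant. ORL1 (AT4G08590) had 1321, 1827 and 697 counts in paps1-3 and 3325, 3507 and 3641 in wild type, a log2 fold change of −2.65 ± 0.14 by TMM (edgeR adjusted p = 4.64e-14) and −1.41 by totals (edgeR adjusted p = 1.69e-08). MET3 (AT4G13610) had 170, 22 and 33 counts in paps1-3 against 3, 1 and 1 in wild type, a fitted log2 fold change of 4.18 ± 0.78 that was 3.19 without paps1-3 A and 4.83 without wild type A. MET2a and MET2b had too few counts to test, MET2a showing 103, 5 and 2 against 0, 0 and 1, so that 1 library, paps1-3 A, held most of its counts.

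All 4 genes of H3K9 methylation, the mark that CMT2 and CMT3 read, were lower by TMM, and by totals 1 was higher and 3 did not pass. Of all tested genes 29.9% were lower by TMM and 70.3% higher by totals. KYP (AT5G13960), at −0.96 by TMM, did not pass without paps1-3 B (−0.79) or without wild type B (−0.87). SUVH5 (AT2G35160) and SUVH6 (AT2G22740), which place the mark, had log2 fold changes of −1.55 ± 0.19 and −0.58 ± 0.14 by TMM and of −0.30 and 0.67 by totals. IBM1 (AT3G07610), a demethylase that keeps it out of genes, was at −1.31 ± 0.25 by TMM and −0.06 by totals (edgeR adjusted p = 0.841). Of linker histone H1, which hinders methyltransferases where DDM1 is missing, H1.1 (AT1G06760) rose under both scalings, by 1.00 ± 0.26 by TMM, and H1.2 (AT2G30620) had 100, 160 and 74 counts in paps1-3 against 7, 3 and 7 in wild type.

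Of 6 genes of the replication fork and chromatin assembly 4 were higher and 2 lower by TMM, and 4 higher and 1 lower by totals. Of all tested genes 42.3% were higher and 29.9% lower by TMM, and 70.3% higher and 9.7% lower by totals. By TMM, PCNA1 did not pass without paps1-3 C, wild type A or wild type B, and MSI1 not without paps1-3 B or wild type C. Subunits of chromatin assembly factor CAF-1 went opposite ways under both scalings. FAS2 (AT5G64630) had 33, 42 and 13 counts in paps1-3 and 96, 68 and 101 in wild type (log2 fold change −2.81 ± 0.30, edgeR adjusted p = 1.33e-08), whereas FAS1 (AT1G65470) had 259, 162 and 82 against 26, 16 and 18 (1.83 ± 0.31, edgeR adjusted p = 1.67e-05). RBR1 (AT3G12280), the retinoblastoma homolog that represses MET1 in gametophytes, was lower by TMM at −1.34 ± 0.14 (edgeR adjusted p = 8.12e-09) and at −0.09 by totals, where it did not pass (edgeR adjusted p = 0.56).

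Among readers and silencers 2 of 5 tested were higher and 0 lower by TMM, and all 5 were higher by totals. Of all tested genes 42.3% were higher and 29.9% lower by TMM, and 70.3% higher and 9.7% lower by totals. MORC6 (AT1G19100), an ATPase of gene silencing, had 1176, 1583 and 493 counts in paps1-3 against 307, 302 and 354, a log2 fold change of 0.51 ± 0.16 (edgeR adjusted p = 0.00688) that did not pass without paps1-3 B (0.29) or without wild type B (0.41). MBD7 (AT5G59800), a methyl-CpG-binding protein, had 27, 25 and 7 against 0, 2 and 1 counts and did not pass without wild type A. Of methyl donor supply genes 3 of 6 were higher by TMM, all 6 by totals, and 0 were lower under either. Among all tested genes 42.3% were higher by TMM and 70.3% by totals, so such calls are common here. The S-adenosylmethionine synthetase genes MAT4 (AT3G17390) and MAT3 (AT2G36880) rose by 3.96 ± 0.23 and 1.39 ± 0.14 (edgeR adjusted p = 2.41e-13 and 5.82e-09), MAT3 with 292 ± 60 CPM in paps1-3 and 111 ± 5.7 in wild type. SAHH1 (AT4G13940), which clears the by-product that inhibits methyltransferases, had 79.2 ± 24.9 CPM in paps1-3 and 11.5 ± 0.6 in wild type (SD, n = 3 each), a log2 fold change of 2.78 ± 0.18 (edgeR adjusted p = 1.40e-11).

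**Figure D5:**
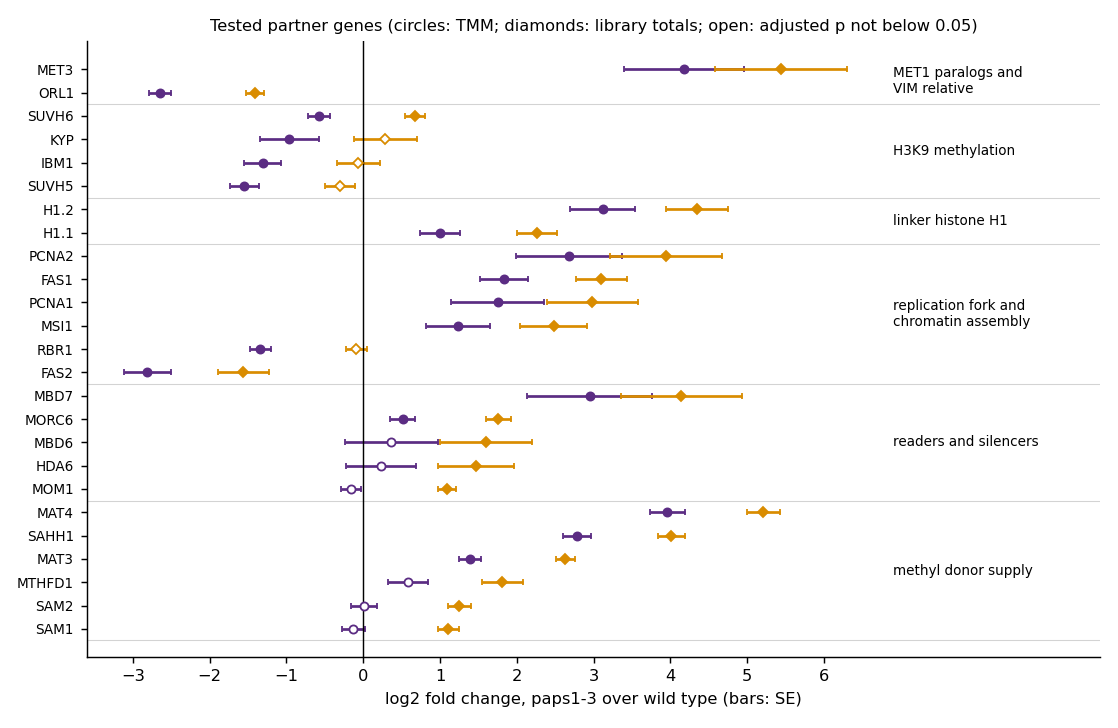
Log2 fold change of the 25 tested partner genes, paps1-3 over wild type (horizontal axis, standard errors as bars), by TMM (purple circles) and by library totals (orange diamonds), grouped by list; open symbols did not pass. The 6 methyl donor genes lie at or above 0 except SAM1 at −0.13 by TMM, and FAS2 and ORL1 lie below 0 under both scalings.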

How the data were processed

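RNA of sorted pollen was sequenced with an amplification kit (Ovation RNA-seq system v2) in pairs of 101 and 99 bases, per the labels' protocols. Each deposited table holds raw counts per gene, for which the submitters' processing notes name TopHat2, HTSeq and TAIR10; the strand setting is not given in the sources used here. The kit is not stated to mark strand. Summary categories that name no gene, 8.84% to 15.3% of each table, were left out. Differential expression used edgeR 4.0.16 in R 4.3.3 (quasi-likelihood test, robust, TMM, filterByExpr with minimum count 10 and total 15), with genotype as the only term and Benjamini-Hochberg adjustment over 14273 genes. The edgeR step was checked on simulated counts, which cannot show whether the assumption of TMM holds in these libraries. Alternatives were library totals, RLE factors, DESeq2 1.42.0, other filters, a letter block and leaving out each library. Ratios within a library were compared by exact permutation tests. Exon lengths, names and sequences came from RefSeq's TAIR10.1, a later release than the authors' TAIR10; the count tables hold no coordinates, and those printed are TAIR10.1's. All 10 members are named, and of each partner list up to 3 called genes with the smallest p. Some further partner genes, such as KYP and MET2a, are named to give a limit. Members, lists and tests were chosen with earlier results of these data known. Pairs of libraries in a group differed by more than sampling noise (chi-square per degree of freedom 17.8 to 35.7).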

Additional observations from a re-analysis of the deposited data

Results flagged for a closer look

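Reads whose alignment was not unique are counted in a category of their own that none of the comparisons used. Relative to gene counts plus this category they made up 10.5%, 8.22% and 12.1% in paps1-3 libraries A, B and C (mean 10.3% ± 1.9) and 6.37%, 5.50% and 5.52% in wild type (5.80% ± 0.50; SD, n = 3 each, exact permutation p = 0.1, the smallest possible). It is listed because the level in paps1-3 lay above that in the wild-type libraries. Reads from the shared parts of VIM2 and VIM4 would fall in this category, and their number in it was not tested.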

How the results depend on the processing

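Scaling by library totals changed most. With it 10031 genes were higher and 1385 lower instead of 6037 and 4273, 6 members were higher and 3 lower instead of 3 and 6, and 19 partner genes were higher and 2 lower instead of 12 and 7. VIM3 and VIM4 then turned to 0.549 and 0.55 on the log2 scale, and VIM5 lost and VIM2 gained its call. With RLE factors, DESeq2 or no filter on low counts, the sign of each member's change and whether it passed were as by TMM. RLE factors and DESeq2 also assume that most genes do not change, so their likeness to TMM does not bear on that assumption. A filter of 1 CPM in 3 libraries left CMT1 and VIM2 untested and 8 members called, 2 of them higher. Leaving out each library in turn gave 9709 to 10568 genes called, 9 members in every case, and 17 to 20 partner genes. Of the members' fold changes those of CMT1 (2.55 to 7.12 on the log2 scale) and CMT2 (3.98 to 5.22) then moved by over 1.5 times. The log2 ratios to MET1 kept their sign with 1 added instead of 0.5, with DDM1 as denominator and without any library. Same-lettered libraries correlated at 0.231, 0.0989 and 0.0755 in their deviations from the group means, so the letters were not taken as pairs, although each library correlated best with its own letter. With the letter as a replicate block 10542 genes and 9 members were called. Against summed sperm markers, an alternative chosen after seeing the data, the log2 difference of VIM1 was −0.544 without PCR11 and −0.895 without PCR11 and GEX1 instead of 0.0019, and that of VIM5 −0.042 and −0.393 instead of 0.504. Depth limits CMT1 and CMT2, whose wild-type libraries held 0 to 3 counts.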
